A study of Mus musculus with 16 samples.

Results

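A group of 10 known target genes of the transcription factor p53 was followed in pancreas and islets of mice lacking Tff2, which encodes the secreted peptide trefoil factor 2. The group held Cdkn1a, Ccng1, Gadd45a, Mdm2, Bax, Phlda3, Eda2r, Trp53inp1, Sesn2 and Zmat3, 10 of the 24091 genes in each count table, found by gene symbol. All 10 passed the low-count filter in both tissues, with 14914 genes tested in pancreas and 14219 in islets. The set was chosen by the difference that several of its genes showed between knockout and control islets, so the islet values are given as a description without a test. Pancreata, which did not serve that choice, were tested for the same pattern.

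Knockout (KO) mice were Pdx1:Cre;Tff2fl/fl and control mice were Tff2fl/fl without Cre, so all animals carried floxed Tff2 alleles. Effects of Cre and of Tff2 loss therefore cannot be told apart. In this line Cre is driven by the promoter of Pdx1, which is active in the early pancreatic epithelium, so cells outside that lineage are not targeted. Polyadenylated RNA was sequenced from 3 KO and 3 control pancreata, taken whole at embryonic day 16.5 (E16.5). Islets, picked by hand from males at 60 weeks, were sequenced from 5 KO and 5 control animals. Each library came from a separately numbered animal. The p-values set the difference between groups against the spread between these animals, taken as independent. Litters were not labelled, so shared litters could not be accounted for.

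The transcription factor p53 is held low in unstressed cells by the ubiquitin ligase Mdm2, itself a p53 target, and accumulates after DNA damage and other stresses. It then binds a symmetrical motif at its target genes and raises their transcription. The products of these genes halt the cell cycle, repair DNA, adjust metabolism or start apoptosis. In beta cells Cdkn1a, which encodes the cyclin-dependent kinase inhibitor p21, is among the genes associated with ageing and with a stop to division.

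Promoter sequences are shown because the members share a regulator whose binding motif is well defined. RefSeq (GRCm38.p6) gave windows of 300 bases around the transcript start for 8 of the 10 members, with 2 starts for Cdkn1a and none used for Trp53inp1 and Zmat3. Each window was searched for the p53 consensus of 20 bases, which reads the same on both strands. The best matches of Cdkn1a and Ccng1 had 1 mismatch each, a closeness reached by 29 of all 32851 promoter windows (0.0883%). The 250 bases before the start are given 5′ to 3′ on the gene's strand, with the best match in capitals. For Cdkn1a this is chr17:29090729-29090978 on the plus strand, before the upstream of its 2 starts. For Ccng1 it is chr11:40755287-40755536 on the minus strand.
Cdkn1a: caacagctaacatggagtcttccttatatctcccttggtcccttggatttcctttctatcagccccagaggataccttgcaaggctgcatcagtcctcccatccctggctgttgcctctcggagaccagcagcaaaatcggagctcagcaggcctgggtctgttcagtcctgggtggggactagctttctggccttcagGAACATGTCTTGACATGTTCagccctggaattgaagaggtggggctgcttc
Ccng1: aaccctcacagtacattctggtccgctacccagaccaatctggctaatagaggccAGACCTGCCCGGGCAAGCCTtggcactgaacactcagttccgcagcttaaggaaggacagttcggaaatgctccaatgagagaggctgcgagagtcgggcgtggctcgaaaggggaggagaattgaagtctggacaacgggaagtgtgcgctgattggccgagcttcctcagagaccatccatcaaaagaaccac

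The closest matches of the 4 members nearest to the consensus are set under each other below, with bases that fit it in capitals and mismatches in lower case.
Cdkn1a: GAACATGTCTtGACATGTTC
Ccng1: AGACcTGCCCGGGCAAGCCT
Bax: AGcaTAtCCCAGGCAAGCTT
Gadd45a: AAACTAcCTaGAGCTgGCTC
These matches began at -51 for Cdkn1a, -195 for Ccng1, -211 for Bax and -244 for Gadd45a, counted from the transcript start. For Cdkn1a this was the upstream start. Bax and Gadd45a had 3 mismatches, which 6.29% of all windows reach. The best match of Mdm2, of Phlda3 and of Sesn2 had 5 mismatches, as did that at the downstream start of Cdkn1a, and 76.6% of all windows match as well as that. Eda2r had 6. A match here describes the letters of these windows only, and sites elsewhere in the genes were not searched.

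Libraries held 14866194 to 22699934 counted reads in pancreas and 22595400 to 32385042 in islets, and members had 137 to 4486 and 31 to 6430 reads per library. Levels are CPM, counts relative to library size, after TMM scaling within each tissue. Tff2, the targeted gene, had 2.70, 9.96 and 1.605 CPM in KO pancreata and 38.7, 22.7 and 35.1 CPM in control pancreata. In islets it had 0 to 16 reads in KO libraries and 25 to 135 reads in control libraries. Summed endocrine markers (Ins1, Ins2, Gcg, Sst, Ppy, Iapp and Chga) reached 154363 to 178799 CPM in KO islets and 159052 to 190989 CPM in control islets. Summed acinar markers reached 84.7 to 1291 CPM in KO islets and 260.4 to 988 CPM in control islets. In the islets no sum over the 13 cell type marker lists set all KO libraries apart from all control libraries.

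In islets, 5 of the 10 members were higher in every KO library than in any control library, and none was lower in that way. Of all islet genes tested 0.781% were higher without overlap, and since these values served the choice of the members nothing is read from the count. The 5 were Phlda3, Eda2r, Cdkn1a, Gadd45a and Ccng1, with KO levels 1.27 to 1.76 times the control levels. Bulk RNA does not tell more RNA per cell from more cells of a type. Over all islet genes the edgeR quasi-likelihood test called 16 higher (0.113%) and 6 lower (0.0422%) at an adjusted p under 0.05, with 1021 at an unadjusted p under 0.05, and DESeq2 called 65 higher and 47 lower.

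Cdkn1a (chromosome 17, 29090979 to 29100722, mm10, plus strand) had 52.1, 35.1, 30.5, 30.3 and 29.5 CPM in KO islets 055, 122, 803, 812 and 845, against 25.6, 18.2, 23.6, 18.3 and 19.5 CPM in control islets 052, 826, 829, 857 and 858. The lowest KO value lay above the highest control value, and KO 055 stood well above the other KO libraries. The means were 35.5 ± 9.54 CPM in KO islets and 21.05 ± 3.35 CPM in control islets (SD, n = 5 each), a log2 fold change of 0.75 with an SE of 0.159. Without KO 055 it was 0.58.

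Ccng1, which encodes cyclin G1, a protein that feeds back on p53 through Mdm2, lies on chromosome 11 from 40748552 to 40755286 (minus strand). It had 221, 188, 192, 175 and 177 CPM in KO islets, against 149, 141, 161, 151 and 149 CPM in control islets, in the same order of animals. The groups were apart here too, with KO 055 the highest, and the log2 fold change was 0.34 (SE 0.0629). Gadd45a (chromosome 6, 67035096 to 67037407, minus strand), a stress-induced brake on the cell cycle, had 12.4, 11.9, 12.9, 13.4 and 10.3 CPM in KO islets, against 9.67, 9.81, 8.66, 8.89 and 8.99 CPM in control islets. KO 845 came closest to the controls, and the log2 fold change was 0.41 (SE 0.0782). An entry on the other strand, E230016M11Rik, overlaps Gadd45a and had up to 70 reads per library, so the division of reads between them is uncertain.

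Phlda3 encodes a pleckstrin homology protein that holds back Akt signalling and lies on chromosome 1 from 135766085 to 135769134 (plus strand). Its levels were 4.78, 3.24, 4.15, 2.73 and 3.53 CPM in KO islets, against 1.77, 1.95, 1.82, 2.54 and 2.38 CPM in control islets. The gap between the groups was narrow, between KO 812 and control 857, although the log2 fold change of 0.82 (SE 0.170) was the highest of the 10. Eda2r (chromosome X, 97333841 to 97377209, minus strand) encodes a receptor of the tumour necrosis factor receptor family that binds ectodysplasin A2. It had 3.54, 3.28, 3.59, 3.31 and 3.15 CPM in KO islets, against 1.37, 2.08, 1.89, 2.13 and 2.38 CPM in control islets. The KO values lay close together, and the log2 fold change was 0.77 (SE 0.140). Phlda3 rested on 40 to 139 reads per islet library and Eda2r on 31 to 120, fewer than any other member, and the entry Timm8a1, whose span in the tables covers all of Eda2r, had up to 50 reads.

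The other 5 members overlapped between the islet groups. Bax, the pore-forming protein of mitochondrial apoptosis (chromosome 7, 45461695 to 45466898, minus strand), had 22.8 ± 0.755 CPM in KO islets and 20.9 ± 0.907 CPM in control islets, with 4 of 5 KO libraries above the highest control. Sesn2, a sestrin that restrains mTORC1 (chromosome 4, 132492807 to 132510456, minus strand), had 55.9 ± 4.32 CPM in KO islets and 51.4 ± 3.26 CPM in control islets, with ranges of 49.95 to 62.1 CPM in KO and 45.7 to 53.6 CPM in control libraries. Zmat3, an RNA-binding zinc finger protein (chromosome 3, 32334794 to 32365665, minus strand), had 71.7 ± 2.85 CPM in KO islets and 68.0 ± 2.71 CPM in control islets. The log2 fold changes of Bax, Sesn2 and Zmat3 were 0.13, 0.12 and 0.08. Mdm2 (chromosome 10, 117688875 to 117710758, minus strand) had 74.7 ± 5.03 CPM in KO islets and 75.9 ± 1.87 CPM in control islets, a log2 fold change of -0.02, and the KO range of 68.8 to 81.7 CPM enclosed the control range of 74.3 to 79.0 CPM. Trp53inp1, a nuclear stress protein that takes part in autophagy (chromosome 4, 11156441 to 11174377, plus strand), had 104.3 ± 16.7 CPM in KO islets and 113.0 ± 14.6 CPM in control islets, a log2 fold change of -0.11. Over the 10 members 8 values were above 0 and 2 below, with a median of 0.23 beside -0.00 for all islet genes.

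**Figure D1:**
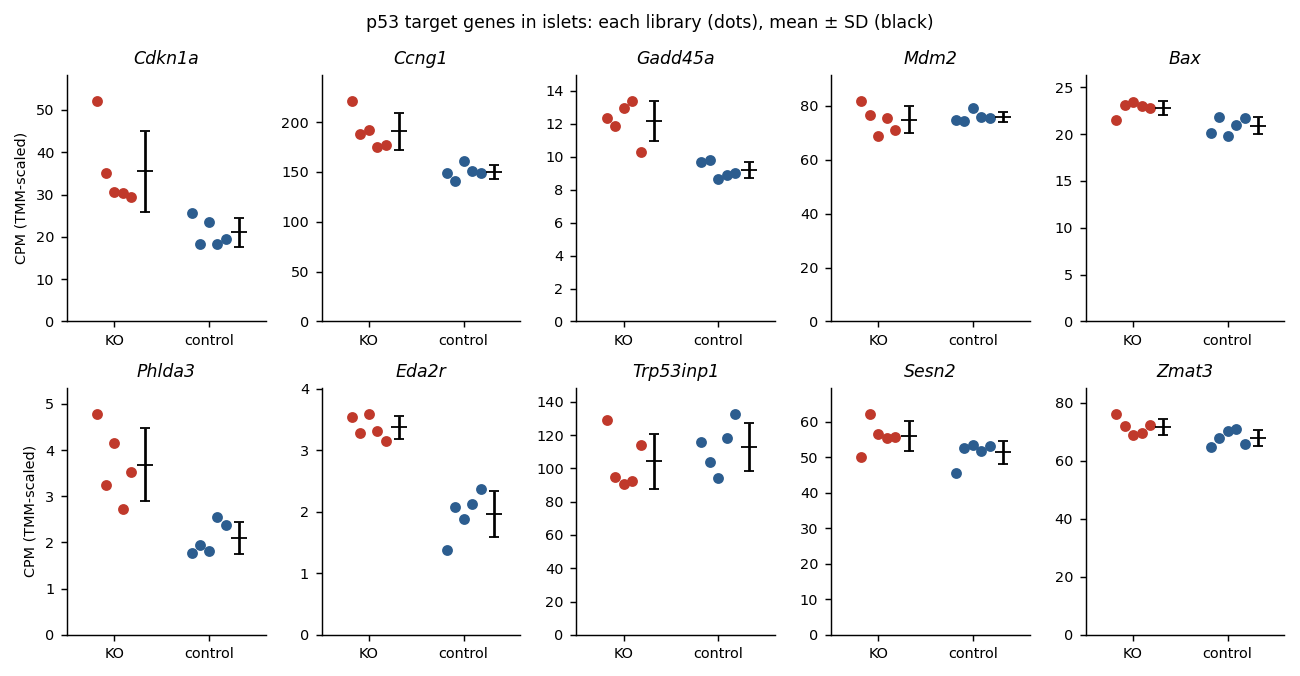
Level of each of the 10 p53 target genes in islets, in CPM after TMM scaling (vertical axis, starting at 0), with KO libraries left of control libraries. Dots are animals and bars mark the mean and SD. Cdkn1a, Ccng1, Gadd45a, Phlda3 and Eda2r have every KO dot above every control dot. Mdm2, Bax, Trp53inp1, Sesn2 and Zmat3 have overlapping dots.

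The summed level of 8 immediate early genes, among them Fos, Egr1 and Dusp1, varied widely between islet libraries. It was 5832, 2314, 684, 473 and 263 CPM in KO islets 055, 122, 803, 812 and 845, against 5348, 297, 584, 581 and 1818 CPM in control islets 052, 826, 829, 857 and 858. KO 055 and control 052 were the highest of their groups in this sum and also in Cdkn1a. KO 055 was the highest KO library for 6 of the 10 members and the lowest for 2. Control 052 was the highest control library for 1 of the 10, Cdkn1a, and the lowest for 4. Without both libraries the log2 fold change was 0.65 for Cdkn1a, 0.28 for Ccng1, 0.42 for Gadd45a, 0.66 for Phlda3 and 0.66 for Eda2r, with a median of 0.21 over the 10.

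The second comparison asked whether the islet pattern was also present in fetal pancreas. No member was called higher there with TMM scaling. Endocrine markers summed to 820 to 2978 CPM in pancreata and to 154363 CPM or more in islets, each tissue scaled separately. A change confined to endocrine cells might therefore not be seen in whole pancreas. Of the 10 members 1 fell and 0 rose in KO pancreata by the edgeR quasi-likelihood test with Benjamini-Hochberg adjustment over all genes, where 2.68% of all genes tested fell and 3.75% rose. DESeq2 gave the same counts for the members, and 2 of the 10 passed an unadjusted p of 0.05, beside 3791 of all 14914 genes. The member that fell was Cdkn1a. Of the 5 members that were higher without overlap in islets, 2 had log2 fold changes above 0 and 3 below 0 at E16.5, with a median of -0.08.

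Cdkn1a had 66.4, 72.1 and 67.0 CPM in KO pancreata 01, 18 and 19, against 86.0, 78.7 and 88.8 CPM in control pancreata 02, 08 and 13. Every KO value lay below every control value. The means were 68.5 ± 3.11 CPM in KO pancreata and 84.5 ± 5.17 CPM in control pancreata (SD, n = 3 each), which is -0.30 on the log2 scale (SE 0.0658), and the edgeR adjusted p was 0.0396. The call sat near the threshold. It was lost without KO 01 (adjusted p = 0.0675), KO 19 (0.0891), control 02 (0.173), control 08 (0.0998) or control 13 (0.108), with limma-voom (0.0525) and with scaling to library totals (0.0734), while the fold change stayed below 0 in each of these.

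Sesn2 had 12.4, 12.4 and 11.2 CPM in KO pancreata, against 15.97, 14.95 and 15.53 CPM in control pancreata. These groups did not overlap either, and the log2 fold change was -0.36 (SE 0.0937), but it missed the threshold (edgeR adjusted p = 0.0581). Cdkn1a and Sesn2 were the members lower without overlap, 2 of 10, beside 16.1% of all genes tested, and 0 of 10 were higher without overlap, beside 15% of all genes.

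The remaining 8 members did not pass at E16.5. Gadd45a had 12.3, 10.4 and 8.14 CPM in KO pancreata, against 11.04, 12.3 and 13.3 CPM in control pancreata, and its log2 fold change of -0.25 had a 95% interval of -0.62 to 0.12. Ccng1 had 238, 231 and 225 CPM in KO pancreata, against 198, 230 and 202 CPM in control pancreata, with an interval of -0.03 to 0.30 around 0.14. KO 01 and KO 18 exceeded the highest control for Ccng1, and for Gadd45a KO 18 and KO 19 were below the lowest. Phlda3 had 13.2, 19.3 and 13.0 CPM in KO pancreata, against 17.1, 14.9 and 15.99 CPM in control pancreata. KO 18 was above all controls and the other KO pancreata were below them, and the interval was -0.45 to 0.29. Eda2r had 17.8, 16.6 and 15.7 CPM in KO pancreata, against 13.4, 16.7 and 14.6 CPM in control pancreata, with an interval of -0.09 to 0.42. Whether the knockout effect differed between the tissues was not tested, since the islet values had chosen the members.

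The other 4 members, Mdm2, Bax, Trp53inp1 and Zmat3, overlapped between the groups at E16.5. Mdm2 had 54.1, 54.4 and 54.7 CPM in KO pancreata and 54.0, 57.3 and 60.7 CPM in control pancreata, a log2 fold change of -0.08 with an interval of -0.22 to 0.07. Bax had 24.3, 27.3 and 23.5 CPM in KO pancreata and 28.2, 29.7 and 22.3 CPM in control pancreata, so control 13 lay below every KO value. Its log2 fold change was -0.10 with an interval of -0.37 to 0.18. Trp53inp1 had 94.4, 88.1 and 93.1 CPM in KO pancreata and 86.1, 90.8 and 84.5 CPM in control pancreata, a log2 fold change of 0.08 (-0.05 to 0.21). Zmat3 had 73.8, 72.6 and 59.7 CPM in KO pancreata and 67.3, 68.1 and 64.9 CPM in control pancreata, at 0.04 (-0.16 to 0.24), with KO 19 the lowest of all 6 libraries. Over the 10 members 4 values were above 0 and 6 below, with a median of -0.08 beside -0.00 for all genes tested.

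**Figure D2:**
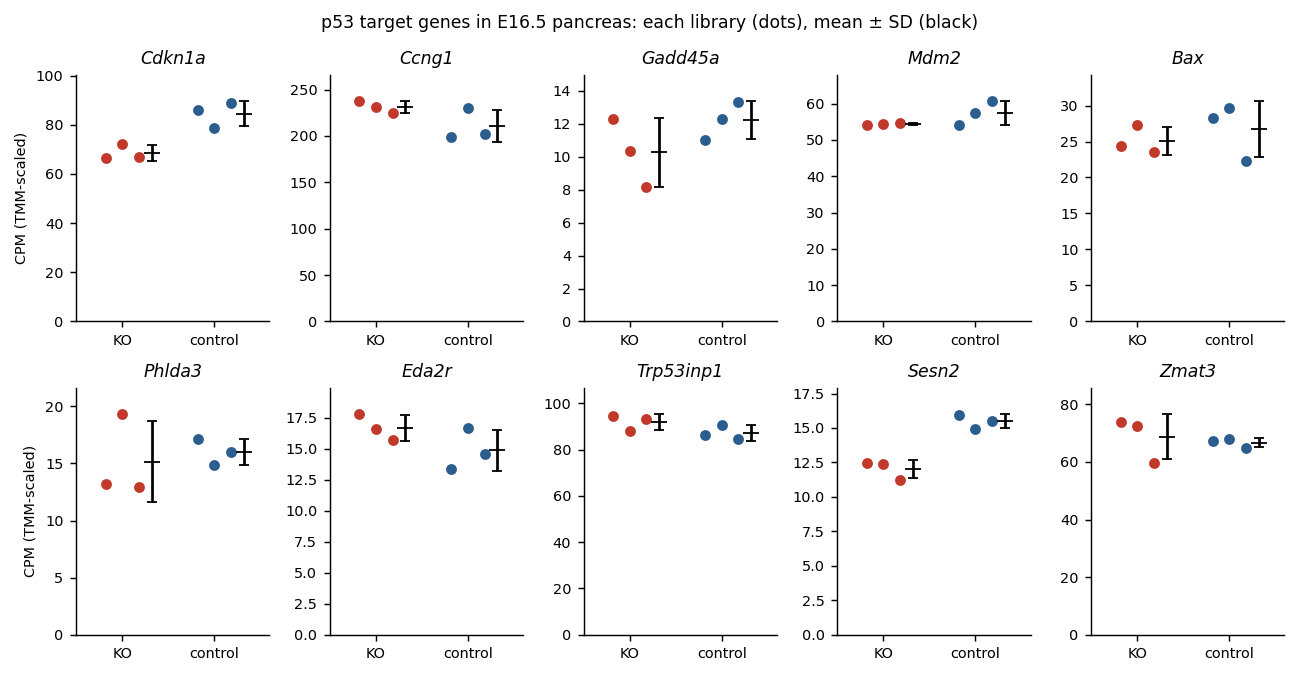
Level of each of the 10 p53 target genes in E16.5 pancreas, in CPM after TMM scaling (vertical axis, starting at 0), with KO libraries left of control libraries. Dots are embryos and bars mark the mean and SD. Cdkn1a and Sesn2 have every KO dot below every control dot, and the other 8 members overlap.

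**Figure D3:**
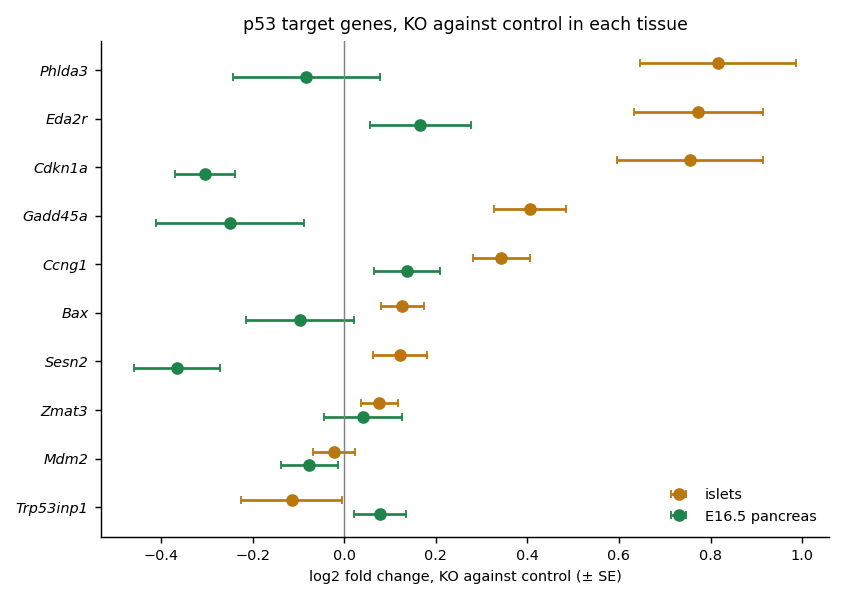
Log2 fold change of KO against control for each member (horizontal axis, points with SE), for islets and for E16.5 pancreas. The islet points of Phlda3, Eda2r and Cdkn1a lie between 0.75 and 0.82, and the E16.5 points of all 10 members lie between -0.36 and 0.17. The islet values chose the members.

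Cell type markers also differed between the E16.5 groups. The summed endocrine markers were 820 to 1405 CPM in KO pancreata and 2223 to 2978 CPM in control pancreata, with 6 of 7 genes fallen. Acinar markers summed to 25333 to 49521 CPM in KO and 53721 to 64784 CPM in control pancreata, with 0 of 7 called, and duct markers to 609 to 784 CPM in KO and 963 to 1013 CPM in control pancreata, with 3 of 5 fallen. Smooth muscle markers summed to 223 to 329 CPM in KO and 130.3 to 171 CPM in control pancreata, and sympathetic neuron markers to 66.9 to 346 CPM in KO and 6.33 to 7.12 CPM in control pancreata, with 4 of 4 genes risen in both lists. Sums of lymphocyte markers, at 32.2 to 45.9 CPM in KO and 27.8 to 30.7 CPM in control pancreata, and of Schwann cell markers, at 49.4 to 63.9 CPM in KO and 39.5 to 43.1 CPM in control pancreata, were higher without overlap. Of the lymphocyte genes 0 of 4 tested were called, and of the Schwann cell genes 2 rose and 1 fell. No gene of these lists was at 0 in any pancreas. Their part in the values of the members was not tested. KO 18 also differed from the other pancreata in its sex-linked transcripts, with 1.56 CPM of Xist and 134 CPM of Ddx3y, the pattern of a male. The other pancreata had the pattern of females, with 1088 to 1809 CPM of Xist and at most 0.173 CPM of Ddx3y. Sex was therefore not balanced between the groups. KO 01 carried 1256 CPM of summed liver markers beside 66.8 to 203 CPM in the other pancreata. Without KO 18 the log2 fold change of Cdkn1a was -0.34 with an edgeR adjusted p of 0.0424.

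The direction of these small fetal differences depended on scaling. When libraries were scaled to 15 pan-epithelial genes, of which 10 had fallen and whose sum was 2176 to 2266 CPM in KO and 2738 to 3200 CPM in control pancreata, the log2 fold change over all genes had a median of 0.44, and 10170 genes were called higher and 36 lower. Under it Cdkn1a was at 0.13 (edgeR adjusted p = 0.309) and Sesn2 at 0.07 (0.618), while 6 members (Ccng1, Mdm2, Bax, Eda2r, Trp53inp1 and Zmat3) were called higher. Such rescaling moves all genes by nearly the same amount. Members therefore kept their places relative to the median of all genes, with Cdkn1a at -0.30, Sesn2 at -0.36, 4 above it and 6 below. With library totals the split of all E16.5 calls was 779 higher and 179 lower, against 560 and 399 with TMM.

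The gene for p53 itself and its regulators were not called in either tissue. Trp53 had 66.4 ± 1.22 CPM in KO pancreata and 71.6 ± 5.16 CPM in control pancreata, a log2 fold change of -0.11 (edgeR adjusted p = 0.341). In islets it had 22.4 ± 1.85 CPM in KO and 22.4 ± 1.23 CPM in control animals. Mdm4, the inhibitory partner of Mdm2, had a log2 fold change of 0.19 at E16.5 (edgeR adjusted p = 0.142) and 0.07 in islets. Of 15 regulators of the pathway, 14 passed the filter at E16.5 and 13 in islets, and 0 were called. Among them Usp7, a deubiquitinase that stabilises Mdm2, was at 0.13 at E16.5 and 0.02 in islets. Rchy1, a ubiquitin ligase for p53, was at -0.13 at E16.5 and 0.04 in islets.

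Other p53 targets were not called in either tissue. Of 33 further targets 0 of 32 tested were called at E16.5, with a median log2 fold change of -0.04, and 0 of 28 tested were called in islets, with a median of 0.03. At an unadjusted p under 0.05 there were 5 at E16.5, beside 3791 of all 14914 genes, and 2 in islets, beside 1021 of all 14219. Of the arrest genes, Btg2, an antiproliferative factor, was at -0.17 at E16.5 and -0.01 in islets, the polo-like kinase gene Plk2 at -0.16 at E16.5 and Plk3 at 0.19 in islets. Btg2 reached 126.0 to 518 CPM in KO islets and 121.1 to 530.2 CPM in control islets, so its islet value carried an SE of 0.468. Of the apoptosis genes, Perp was at -0.20 at E16.5 with no overlap (edgeR adjusted p = 0.0870), Ei24 at -0.04 at E16.5 and -0.01 in islets, and the nuclease gene Aen at 0.27 in islets (edgeR adjusted p = 0.641). The repair genes Xpc and Ercc5 were at -0.10 and 0.04 at E16.5, and Xpc and Rrm2b at -0.04 and -0.07 in islets. Ephx1, an epoxide hydrolase gene, was lower at E16.5, at -0.41, and higher in islets, at 0.17, without overlap in either tissue. It missed the threshold in both (edgeR adjusted p = 0.0697 at E16.5 and 0.369 in islets). At E16.5 16.1% of all genes tested were lower without overlap, Rchy1, Plk2 and Mcl1 among them, and 15% were higher, Mdm4 among them. In islets 0.781% of all genes tested were higher without overlap. Dram1, a lysosomal autophagy gene, was at -0.15 at E16.5, and the adenylate kinase gene Ak1 was at 0.02 in islets.

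Genes downstream of p21 and its relatives were not called in either tissue. Of 14 cell cycle genes repressed when p21 is active, 9 passed the filter in islets. There the median was -0.37 with 8 of 9 below 0 and 0 called, also at an unadjusted p under 0.05. Several of the 9 had mean levels below 1 CPM, near the floor, and their SEs reached 0.491. The sum of all 14 overlapped between the groups, at 18.1 to 32.5 CPM in KO islets and 22.3 to 39.3 CPM in control islets. The replication factor genes Mcm2 and Mcm5, the most abundant of them per length, were at 0.15 and -0.10 in islets. At E16.5 all 14 were tested and the median was -0.01, with Top2a at 0.12 and Ccna2 at 0.06. Among other inhibitors of cyclin-dependent kinases, Cdkn1b was at -0.16 in islets (edgeR adjusted p = 0.4657) and 0.10 at E16.5, Cdkn2b at -0.07 in islets and Cdkn1c at -0.07 at E16.5. Relatives of the members included Sesn3 and Trp53inp2, at -0.04 and -0.07 in islets, and Mcl1 and Phlda1, at -0.15 and -0.21 at E16.5.

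Sesn2 is also a target of the stress factor Atf4, so that pathway was read beside it. Of the 8 genes of the integrated stress response listed, which include Sesn2, 0 passed at E16.5, and the median was -0.34. Atf4 had 188 ± 18.1 CPM in KO pancreata and 243 ± 20.8 CPM in control pancreata, a log2 fold change of -0.37 without overlap (edgeR adjusted p = 0.0520). Asns, which makes asparagine, was at -0.32 without overlap (edgeR adjusted p = 0.0579), beside 16.1% of all genes tested lower in that way. In islets Atf4 was at -0.23 and Asns at 0.06, and 0 of the 8 passed. Of 8 immediate early genes at E16.5 1 fell, Ier2, at 33.7 ± 1.94 CPM in KO pancreata and 42.9 ± 3.12 CPM in control pancreata (log2 fold change -0.35, edgeR adjusted p = 0.0423), a call that was lost without each library except KO 18 (adjusted p from 0.0675 to 0.187). In islets 0 of these 8 were called, with Fos at 0.14 and Egr1 at 0.15. Over all these lists together, 96 genes without the members, 0 of 92 tested rose and 1 fell at E16.5, and 0 of 82 tested were called in islets. At an unadjusted p under 0.05 there were 16 of the 92 at E16.5 and 6 of the 82 in islets, beside the same 3791 and 1021 of all genes. DESeq2 called 4 lower at E16.5 and 0 in islets.

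**Figure D4:**
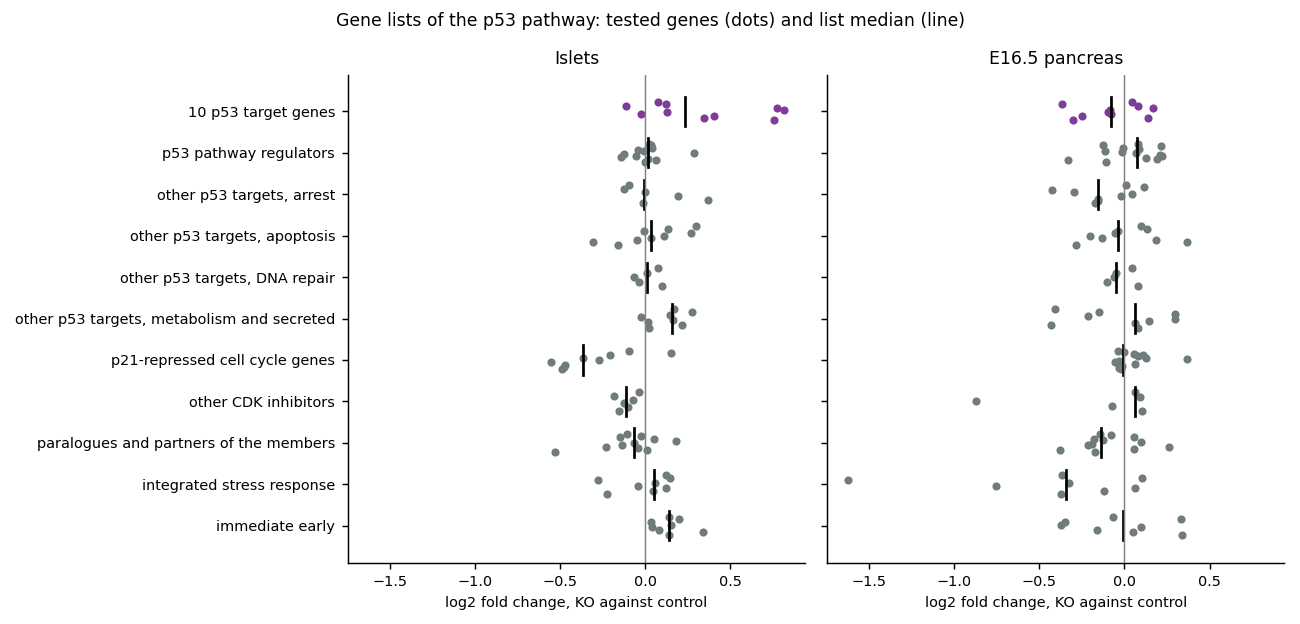
Log2 fold change of KO against control (horizontal axis) for every tested gene of the 10 p53 target genes and of 10 lists of related genes, in islets and in E16.5 pancreas. Dots are genes and black lines are list medians. The 10 p53 target genes have a median of 0.23 in islets and -0.08 at E16.5. The cell cycle genes repressed by p21 have a median of -0.37 in islets, where several of them are near the floor.

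Cdkn1a, Phlda3 and Eda2r had much lower levels in control islets than in control pancreata, and Sesn2 had a higher level. Control islets were set against control E16.5 pancreata after TMM scaling over both, without a test because the control islets belong to the contrast that chose the members. Tissue, age and sex cannot be told apart in this comparison. Cdkn1a had 21.9 ± 3.43 CPM in control islets (n = 5) and 75.9 ± 4.79 CPM in control pancreata (n = 3), a log2 difference of -1.79. Phlda3 had 2.18 ± 0.363 CPM in control islets and 14.4 ± 1.01 CPM in control pancreata, a difference of -2.71, and Eda2r had 2.05 ± 0.395 CPM in control islets and 13.4 ± 1.47 CPM in control pancreata, a difference of -2.70. Sesn2 went the other way, with 53.5 ± 3.56 CPM in control islets and 13.9 ± 0.473 CPM in control pancreata, a difference of 1.94. Mdm2 and Trp53inp1 were higher in islets by 0.62 and 0.59 and Zmat3 by 0.24, while Ccng1, Gadd45a and Bax were lower by smaller amounts, at -0.27, -0.20 and -0.14. With library totals the all-gene median was -0.23 and Zmat3 stood at 0.05.

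Per kb of gene length, Ccng1 had the highest level of the 10 in every group. In control islets it had 43.2 ± 2.03 CPM per kb, followed by Mdm2 at 24.2, Sesn2 at 19.4, Trp53inp1 at 17.7, Bax at 15.6, Cdkn1a at 9.47, Zmat3 at 8.74, Gadd45a at 7.54, Phlda3 at 1.43 and Eda2r at 0.334. Sesn2, Trp53inp1 and Bax lay within the sum of the neighbours' SDs, as did Cdkn1a and Zmat3. In control pancreata Ccng1 had 60.4 ± 4.95 CPM per kb, followed by Cdkn1a at 38.0, Bax at 20.0, Mdm2 at 18.3, Trp53inp1 at 13.7, Phlda3 at 10.9, Gadd45a at 10.03, Zmat3 at 8.58, Sesn2 at 5.85 and Eda2r at 2.53. Bax and Mdm2 lay within their spread, as did Phlda3 and Gadd45a. In KO islets Cdkn1a had 15.98 ± 4.30 CPM per kb, below the 30.8 ± 1.40 CPM per kb of KO pancreata.

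**Figure D5:**
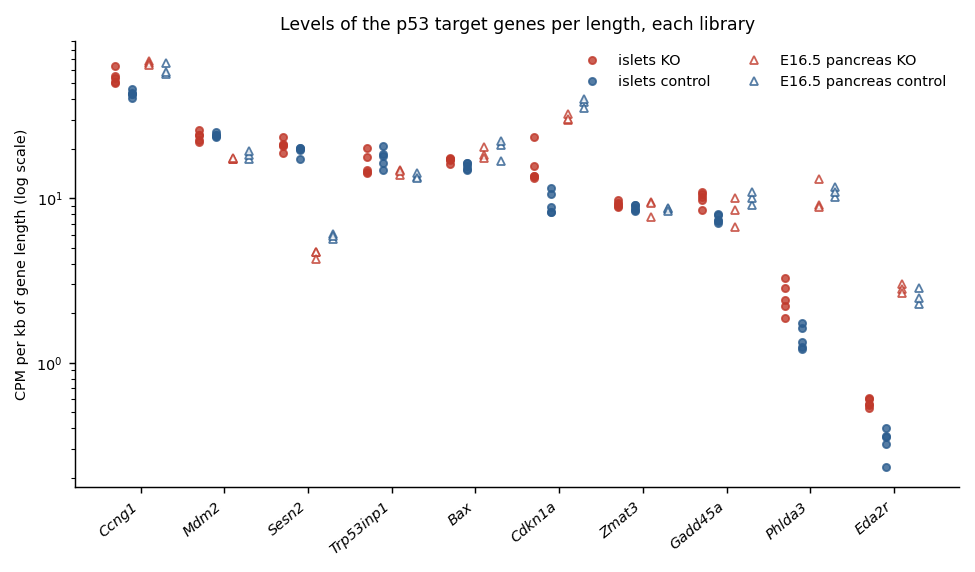
Level of each p53 target gene in CPM per kb of gene length in every library (vertical axis, log scale), with islets as filled dots, E16.5 pancreata as open triangles, and KO left of control in each tissue. The tissues were scaled separately. Sesn2 is higher in islets, and Cdkn1a, Phlda3 and Eda2r are higher in pancreas in both genotypes.

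The genes whose profile was most like that of Cdkn1a were Mapkapk3, Arl4c, Sgk1, Car8 and Dusp6. Likeness was the root mean square difference of log2 CPM, centred within each tissue, over the 16 libraries, and it was 0.196, 0.209, 0.214, 0.215 and 0.222 for these genes. The median over 12086 genes was 0.387. Mapkapk3 had a log2 fold change of 0.48 in islets and -0.18 at E16.5, and Arl4c had 0.54 in islets and -0.26 at E16.5. Of the other members Ccng1 ranked 21st, Phlda3 33rd and Gadd45a 42nd in likeness, Eda2r 818th and Trp53inp1 8553rd. This describes the profiles only, since the islet difference that chose the members is part of them.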

How the data were processed

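The authors deposited raw counts of reads per gene, 1 table per tissue, with coordinates and a gene length in kb. Per the labels' protocols, polyadenylated RNA was made into libraries with the Kapa mRNA HyperPrep kit. Per the submitters' processing notes the build was mm10 and the tools were HTSeq 0.11.1, STAR 2.6.0, edgeR and Trimmomatic. Annotation version and strand setting: not given in the sources used here. Overlapping genes on opposite strands may therefore share reads.

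The members and gene lists were chosen with earlier results of these data known. Genes outside the members were named by a fixed rule, taking each list's called genes or, where none was called, its 2 most abundant per length, with Trp53, Mdm4 and the 5 genes most like Cdkn1a. Genes were tested within each tissue by edgeR 4.0.16 (R 4.3.3) with TMM scaling, filterByExpr, a quasi-likelihood F test and Benjamini-Hochberg adjustment over all genes, with a threshold of 0.05. Standard errors were derived from each F statistic, intervals of 95% from the t distribution, and CPM from the scaled library sizes. Promoters were taken from RefSeq (GRCm38.p6). Counts limit precision, with members at 31 to 6430 reads per library among totals of 14866194 to 32385042. Replicates differed by more than sampling noise in every pair (chi-square per degree of freedom at least 4.90). The fit was tested on simulated counts. Alternatives used DESeq2 1.42.0, limma 3.58.1 (voom), other scalings and filters, and each replicate left out. No samples were left out otherwise, and no batch is labelled.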

Additional observations from a re-analysis of the deposited data

Results flagged for a closer look

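Cdkn1a in islets of KO 055 was at 52.1 CPM, apart from the other 4 KO islets at 29.5 to 35.1 CPM. Sesn2 in islets of control 052 was at 45.7 CPM, below the other 4 control islets at 51.7 to 53.6 CPM. Both were the sample farthest from the rest of its group by Dixon's criterion, which was looked at in 22 groups and flags about 5% of groups by chance. These 2 libraries also had the highest summed immediate early genes of their groups. At E16.5 Cdkn1a was lower in every KO pancreas than in any control pancreas (log2 fold change -0.30), as were 16.1% of all genes tested. With pan-epithelial scaling the value was 0.13, and its edgeR call was lost under several alternatives. In islets Cdkn1a was higher in every KO library than in any control library, a difference that served the choice of the members. The difference between the tissues was not tested.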

How the results depend on the processing

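All alternatives for the gene lists and the genes outside the members, and the omission of KO 055 with control 052, were chosen after seeing the data, and the cause of each change below was not tested. In islets the log2 fold changes of the 5 members without overlap were 0.58 to 0.83 for Cdkn1a, 0.28 to 0.37 for Ccng1 and 0.37 to 0.46 for Gadd45a. They were 0.66 to 0.90 for Phlda3 and 0.66 to 0.85 for Eda2r. These members were singled out for having no overlap, so leaving out a library could hardly turn their sign. Nothing is read from the sign staying above 0. At E16.5 the log2 fold changes of Ccng1, Eda2r and Trp53inp1 stayed above 0. Members called lower numbered 0 with library totals, limma-voom and pan-epithelial scaling and 0 to 1 with replicates left out, and members called higher numbered 6 with pan-epithelial scaling. Over the alternatives the adjusted p of Cdkn1a ranged from 0.0121 to 0.309 and that of Sesn2 from 0.0583 to 0.618. In the main edgeR fit they were 0.0396 and 0.0581.

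Over all E16.5 genes, 918 were called higher and 632 lower with DESeq2, 275 higher with limma-voom, 179 lower with library totals, and 10170 higher and 36 lower with pan-epithelial scaling. With replicates left out 0 to 694 were called higher and 0 to 395 lower, and without control 02, 08 or 13 at most 3 higher and 1 lower. In islets DESeq2 called 65 higher and 47 lower, and with replicates left out 3 to 16 were higher and 2 to 10 lower. Of the list genes at E16.5, 0 were called lower with library totals, limma-voom or pan-epithelial scaling, 2 with no filter, 4 with DESeq2 and 0 to 4 with replicates left out, and 57 were called higher with pan-epithelial scaling and 0 to 2 with replicates left out.

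With pan-epithelial scaling these E16.5 log2 fold changes turned positive: Cdkn1a 0.13, Gadd45a 0.18, Mdm2 0.36, Bax 0.35, Phlda3 0.36, Sesn2 0.072, Rchy1 0.31, Plk2 0.28, Btg2 0.27, Ei24 0.40, Perp 0.24, Xpc 0.33, Ephx1 0.038, Dram1 0.29, Cdkn1c 0.37, Mcl1 0.29, Phlda1 0.23, Asns 0.12, Atf4 0.066, Ier2 0.087 and Trp53 0.33. With library totals the E16.5 values of Mdm2, Ei24 and Cdkn1c were 0.0010, 0.039 and 0.00097, and the islet values of Btg2 and Ei24 0.0065 and 0.017. Fos in islets was -0.048 with limma-voom. Trp53 in islets was 0.0014 with DESeq2 size factors, 0.021 with library totals, 0.00084 with a filter of at least 1 CPM, 0.0028 with DESeq2, 0.0034 with limma-voom and 0.0022 with upper-quartile scaling. With replicates left out the E16.5 log2 fold change ranged from -0.29 to 0.019 for Phlda3, -0.0078 to 0.14 for Zmat3, -0.013 to 0.087 for Ercc5 and -0.090 to 0.14 for Ccna2. In islets it ranged from -0.48 to 0.47 for Btg2, -0.018 to 0.0029 for Ei24 (0.0034 without KO 055 and control 052 together), -0.011 to 0.044 for Ak1, -0.21 to 0.068 for Mcm5, -1.01 to 1.21 for Fos, -0.84 to 1.19 for Egr1 and -0.042 to 0.035 for Trp53. No paired analysis was possible because the groups compared share no replicate number. Eda2r and Phlda3 rested on 31 to 120 and 40 to 139 reads per islet library, which limits the precision of their values.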
